A study of Mus musculus with 30 samples.

Results

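Transforming growth factor beta (TGF-beta) is a secreted signal that heart cells store in the extracellular matrix, and 10 genes of its pathway were followed here through 30 mouse hearts. They were 4 ligand genes (Tgfb1, Tgfb2, Tgfb3 and Inhba, the subunit of the related ligand activin A), 2 receptor genes (Tgfbr1 and Tgfbr2), 3 genes of latent-binding proteins (Ltbp1, Ltbp2 and Ltbp3) and Smad7, an inhibitor of the pathway. The genes were taken by symbol from a count table of 55487 gene identifiers. All 10 were found, and all 10 passed the filter on low counts in both cohorts, where 15596 and 15745 genes were tested.

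TGF-beta is made as a precursor whose propeptide stays wrapped around the mature ligand. Latent-binding proteins tie this inactive complex to matrix fibres, and integrins or proteases release the ligand from it. The free ligand brings together the type II receptor (Tgfbr2) and the type I receptor (Tgfbr1), which phosphorylate the Smad2 and Smad3 proteins. In the pressure-loaded heart the pathway is best known for driving fibroblasts to make matrix. Activin A signals through its own receptors to the same Smad proteins. Smad7 is itself a target gene of the pathway and blocks the type I receptor.

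All mice had surgery 8 weeks before collection, either sham or transverse aortic constriction (TAC), in which the narrowed vessel makes the left ventricle pump against a higher pressure. The floxed cohort held 4 groups of 4 hearts. Mice with a floxed Cpt1a gene and no stated Cre were the controls (FF_sham, FF_TAC), and mice labelled as a cardiac specific CPT1a knockout were compared with them (KO_sham, KO_TAC). The AAV9 cohort held C57Bl/6 mice given saline (PBS_sham and PBS_TAC, 3 hearts each) or the viral vector AAV9.Cpt1a (AAV_sham and AAV_TAC, 4 hearts each). Cpt1a encodes the enzyme that lets long-chain fatty acids into mitochondria, and per the series text the study lowered it in one cohort and raised it in the other. The labels name neither the Cre line nor the age of the mice. They give a pair of clip sizes without saying which mouse had which, and the series text calls the vector cardiac-specific. No group received an empty vector. Nothing in the labels says whether replicates came from separate litters, so the p-values measure the spread between these libraries.

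Total counts ran from 14839758 to 22070373 per library. Summed haemoglobin transcripts, a measure of blood in the sample, were under 100 CPM (counts scaled to library size) in 7 libraries and above it in 23. All KO_TAC libraries, FF_TAC 2 and 3 and the library labelled KO_sham 2 make up the 7, called haemoglobin-low below. Early response genes such as Fos and Egr1 averaged 7.08 to 8.87 log2 CPM in these 7. The range was 3.48 to 4.10 for floxed libraries outside them and 4.76 to 6.16 for AAV9 libraries. As every KO_TAC library is haemoglobin-low, its comparisons are given with and without the others of that kind. The library labelled KO_sham 2 had 46.2 CPM of Cpt1a, above the rest of its group (20.3 to 23.6 CPM). In FF_TAC 2 and 3 Cpt1a was 20.3 and 16.2 CPM, against 48.8 and 33.9 CPM in FF_TAC 1 and 4. Directions that rest on these 3 libraries rest on their labels. In the AAV9 cohort Cpt1a was 56.3 to 88.3 CPM in AAV_sham and 37.4 to 68 CPM in PBS_sham. After TAC it was 44.8 to 62.6 CPM with the vector and 40.2 to 61.5 CPM with saline. The vector and saline libraries thus overlapped in Cpt1a, in sham and in TAC hearts. The 4 cardiomyocyte markers were present in every heart, and the neutrophil markers summed to at most 1.85 CPM.

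Promoter sequence is shown for the 4 members with the largest fold changes between groups, so that their control regions can be read beside the values below. RefSeq windows (GRCm38.p6) were matched for 8 of the 10 members and hold the bases before the annotated start, printed 5′ to 3′ on the gene's strand. Capitals mark a GC box (GGGCGG, bound by Sp1-type factors) or a TATA element (TATAAA), each searched on both strands.
Tgfb1, chr7:25686752-25687001, plus strand: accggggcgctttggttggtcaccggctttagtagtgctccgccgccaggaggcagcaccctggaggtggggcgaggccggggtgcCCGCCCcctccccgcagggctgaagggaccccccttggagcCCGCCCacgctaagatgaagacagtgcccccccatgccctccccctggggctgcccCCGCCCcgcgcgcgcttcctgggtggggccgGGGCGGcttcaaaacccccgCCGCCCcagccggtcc
Tgfb2, chr1:186705990-186706239, minus strand: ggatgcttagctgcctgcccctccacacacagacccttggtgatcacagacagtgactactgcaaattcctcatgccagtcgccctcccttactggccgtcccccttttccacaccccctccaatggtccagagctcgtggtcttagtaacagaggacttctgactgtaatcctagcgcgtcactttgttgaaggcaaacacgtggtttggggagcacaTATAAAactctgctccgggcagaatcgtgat
Inhba, chr13:16011601-16011850, plus strand: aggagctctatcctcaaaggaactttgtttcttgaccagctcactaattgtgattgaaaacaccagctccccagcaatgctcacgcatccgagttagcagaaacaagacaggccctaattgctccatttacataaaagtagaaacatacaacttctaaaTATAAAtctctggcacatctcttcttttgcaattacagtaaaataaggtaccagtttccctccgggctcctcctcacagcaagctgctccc
Ltbp2, chr12:84876533-84876741, minus strand: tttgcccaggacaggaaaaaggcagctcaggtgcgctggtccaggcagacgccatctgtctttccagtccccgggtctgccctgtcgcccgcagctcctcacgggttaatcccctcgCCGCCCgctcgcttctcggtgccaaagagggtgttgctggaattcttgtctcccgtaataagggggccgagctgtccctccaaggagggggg

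The windows differ in kind. Tgfb1 had 75.2% G and C over 250 bases, 5 GC boxes and no TATAAA. Tgfb2 had 53.6% G and C and a TATAAA that begins 31 bases before the start. Inhba had 43.2% G and C and a TATAAA that begins 91 bases before the start. For Ltbp2 the 41 bases nearest the start are left out because they are annotated as untranslated exon. The remaining 209 bases had 63.2% G and C and 1 GC box, which begins 133 bases before the start, and a second begins 9 bases before it in the part not shown. Among 32851 windows of 250 bases, 32.7% held a GC box and 12.4% held TATAAA. The AP-1 element TGANTCA (in 6.75% of windows), the cyclic AMP element TGACGTCA (1.55%), the Smad palindrome GTCTAGAC (0.167%) and the CAGA box AGCCAGACA (0.301%) had no match in these 4 windows on either strand. These are matches of letters only.

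Levels of different genes were compared per kilobase of exon (CPM per kb). In FF_sham the most abundant members were Ltbp3 (6.78 ± 0.943), Tgfb1 (6.70 ± 0.649) and Tgfbr2 (6.59 ± 0.943), which did not differ beyond their SD (n = 4 each). Tgfb3 (5.23 ± 0.885), Smad7 (4.82 ± 0.567) and Ltbp1 (4.56 ± 0.471) followed, also within their SD of each other. Tgfb2 (2.50 ± 0.367) and Tgfbr1 (2.01 ± 0.209) were lower. The scarcest were Ltbp2 (0.526 ± 0.251) and Inhba (0.353 ± 0.0820). In KO_TAC the order was another one. Tgfb1 led with 17.6 ± 4.87 CPM per kb (SD, n = 4). Tgfb2 (10.8 ± 4.0), Ltbp2 (10.3 ± 5.0), Ltbp3 (10.2 ± 0.993) and Tgfb3 (10.1 ± 2.28) came next and were within their SD of each other. Ltbp2 thus stood among the most abundant members there, while Inhba (2.73 ± 0.799) was still the scarcest and Ltbp1 (3.26 ± 1.20) was next to it.

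**Figure D1:**
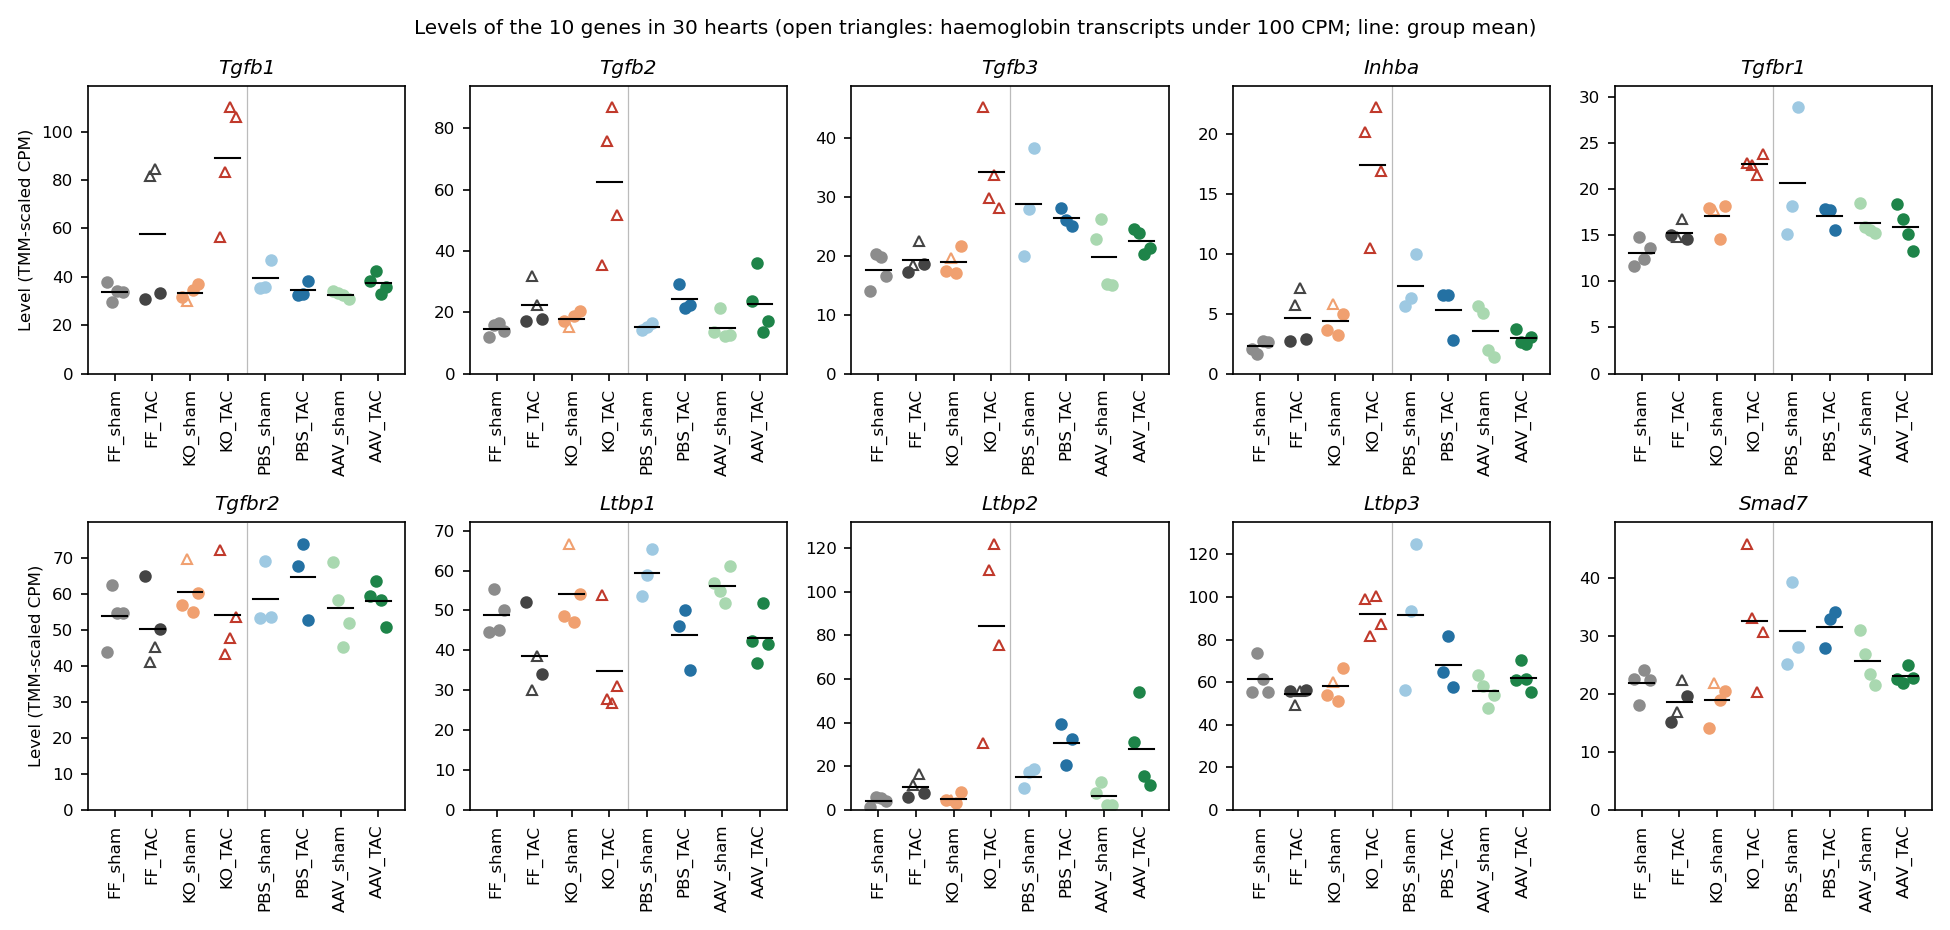
Level of each gene in each of the 30 hearts, in TMM-scaled CPM on a linear axis from 0, by group. Points are hearts, short lines are group means, open triangles are the 7 haemoglobin-low libraries, and the grey line separates the floxed from the AAV9 cohort. The 4 KO_TAC libraries lie above all KO_sham libraries for 7 genes, with Ltbp2 at 30.5 to 122 CPM.

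The comparison of KO_TAC with KO_sham asks how knockout hearts differ under pressure load. Of the 10 members, 9 passed the threshold (edgeR quasi-likelihood test, Benjamini-Hochberg adjusted p under 0.05), 8 higher and 1 lower in KO_TAC. Among all genes 25.8% passed, 14.3% higher and 11.5% lower. The libraries of the groups did not overlap for 7 members, all higher, against 11.1% of all genes. The median log2 fold change was 0.82 over the members and 0.02 over all genes tested. Set against FF_TAC, which asks what the knockout adds under load, 7 members passed, all higher in KO_TAC. In that comparison 14.3% of all genes passed, 7.53% higher and 6.8% lower. For 6 members the libraries did not overlap, all higher, against 6.76% of all genes, and the medians were 0.79 and 0.04. Both comparisons share the KO_TAC libraries. These shares of all genes depended on single libraries. Against KO_sham they were 40.8% without KO_TAC 1, 16.7% without KO_TAC 2, 12.3% without KO_TAC 3 and 16% without KO_sham 3 or KO_sham 4, while 8 to 9 members passed. Against FF_TAC they were 24.3% without KO_TAC 1, 7.59% without KO_TAC 3, 8.65% without FF_TAC 1 and 7.08% without FF_TAC 4, while 6 to 7 members passed.

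Ltbp2 (ENSMUSG00000002020, GRCm38 chr12:84783212-84876532, minus strand) is a matrix protein of the latent-binding family that, unlike its relatives, does not bind latent TGF-beta itself. It changed most of the members in both comparisons. Its CPM values were 30.5, 110.0, 122 and 75.5 in KO_TAC 1 to 4, 4.6, 4.8, 3.33 and 8.35 in KO_sham, 6.02, 11.4, 16.7 and 7.95 in FF_TAC, and 1.40, 5.88, 5.63 and 4.31 in FF_sham. Every KO_TAC library was above every other floxed library, and the FF_TAC libraries lay above the FF_sham ones. Ltbp2 rose by a log2 fold change of 4.0 from KO_sham to KO_TAC (SE 0.50, edgeR adjusted p 5.26e-04) and was higher than in FF_TAC by 3.01 (SE 0.47, adjusted p 0.00148). The step from FF_sham to FF_TAC was 1.28 (SE 0.47, adjusted p 0.378). An antisense gene, D030025P21Rik, overlaps its exons but held at most 7 counts in any library.

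Inhba (ENSMUSG00000041324, chr13:16011851-16031621, plus strand) had the next largest log2 fold change in both comparisons. Its levels were 20.1, 10.5, 22.2 and 16.9 CPM in KO_TAC, 3.64, 5.83, 3.22 and 4.96 in KO_sham, 2.68, 5.72, 7.17 and 2.87 in FF_TAC, and 2.01, 1.63, 2.73 and 2.65 in FF_sham. The lowest KO_TAC library was above the highest of the other 3 groups, and every KO_sham library was above every FF_sham library. Inhba rose by 1.99 from KO_sham to KO_TAC (SE 0.32, edgeR adjusted p 0.00171) and exceeded FF_TAC by 1.92 (SE 0.32, adjusted p 0.00199). Counts were low in the shams, 30 to 48 reads per FF_sham library.

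Tgfb2 (ENSMUSG00000039239, chr1:186622792-186705989, minus strand) is the isoform best known from heart development. It stood at 35.5, 75.7, 86.8 and 51.6 CPM in KO_TAC, 17.1, 15.2, 18.6 and 20.5 in KO_sham, 17.0, 31.8, 22.2 and 17.8 in FF_TAC, and 11.8, 15.7, 16.6 and 13.9 in FF_sham. KO_TAC did not overlap any other floxed group, and FF_TAC did not overlap FF_sham. The log2 fold change was 1.81 against KO_sham (SE 0.25, edgeR adjusted p 7.90e-04) and 1.49 against FF_TAC (SE 0.25, adjusted p 0.00198). Exons of the antisense gene Gm29491 overlap Tgfb2 and held at most 5 counts.

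Tgfb1 (ENSMUSG00000002603, chr7:25687002-25705077, plus strand), the most studied isoform, was split within FF_TAC. Its CPM values were 56.6, 83.5, 110.1 and 106 in KO_TAC, 31.0, 81.7, 84.7 and 33.3 in FF_TAC, 31.7, 29.8, 34.7 and 37.2 in KO_sham, and 37.7, 29.7, 34.2 and 33.6 in FF_sham. The high FF_TAC pair, libraries 2 and 3, is the haemoglobin-low pair, while the haemoglobin-low library labelled KO_sham 2 was the lowest of its group. Tgfb1 rose from KO_sham to KO_TAC by 1.42 (SE 0.30, edgeR adjusted p 0.00525). Its excess over FF_TAC, 0.63 (SE 0.29), did not pass (adjusted p 0.157). Without FF_TAC 2 and 3 and KO_sham 2 that excess was 1.45 and passed (adjusted p 9.59e-04), and among haemoglobin-low libraries alone it was 0.07. The FF_TAC value against FF_sham, 0.77 (SE 0.29, adjusted p 0.383), turned to -0.07 without those 3 libraries.

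Tgfb3 (ENSMUSG00000021253, chr12:86056745-86079041, minus strand), the third isoform, showed a smaller shift from KO_sham than the other ligand genes. Levels were 45.3, 29.8, 33.8 and 28.1 CPM in KO_TAC, 17.4, 19.7, 17.1 and 21.7 in KO_sham, 17.3, 18.5, 22.5 and 18.7 in FF_TAC, and 14, 20.4, 19.8 and 16.6 in FF_sham. Only the KO_TAC libraries stood apart among these 4 groups. The log2 fold change was 0.85 against KO_sham (SE 0.16, edgeR adjusted p 0.00294) and 0.83 against FF_TAC (SE 0.16, adjusted p 0.00362). Without KO_TAC 1, the highest of these libraries, the values were 0.68 and 0.66 and still passed. A pair of transcripts on the opposite strand, Gm37804 and Gm48008, overlap its exons with at most 3 counts each.

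Of the receptor genes 1 changed, by less than any ligand gene that passed. Tgfbr1 (ENSMUSG00000007613, chr4:47353222-47414931, plus strand), the type I receptor kinase, was at 22.9, 22.6, 21.5 and 23.8 CPM in KO_TAC, 18, 17.7, 14.6 and 18.2 in KO_sham, 15, 14.8, 16.8 and 14.6 in FF_TAC, and 11.7, 14.8, 12.4 and 13.6 in FF_sham. The KO_TAC values were tightly grouped and above all others. The shift was 0.41 on the log2 scale from KO_sham (SE 0.10, edgeR adjusted p 0.0104) and 0.57 from FF_TAC (SE 0.10, adjusted p 0.00243). Scaled by library totals alone, the first was 0.35 and did not pass (adjusted p 0.0550). Tgfbr2 (ENSMUSG00000032440, chr9:116084293-116175360, minus strand), the ligand-binding type II receptor, ran from 43.3 to 72.2 CPM in KO_TAC, inside which lay all 4 KO_sham values (55.0 to 69.8). Its differences of -0.16 (SE 0.17) and 0.11 (SE 0.17) did not pass in edgeR (adjusted p 0.503 and 0.702).

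Of the latent-binding proteins, Ltbp1 (ENSMUSG00000001870, chr17:75005568-75392512, plus strand), which holds latent TGF-beta in the matrix, was the one member lower in KO_TAC. It had 53.9, 27.7, 26.9 and 31.0 CPM in KO_TAC, 48.5, 66.7, 47.1 and 54.1 in KO_sham, 52.2, 30, 38.5 and 34.0 in FF_TAC, and 44.6, 55.4, 45.1 and 50.0 in FF_sham. KO_TAC 1 lay within the KO_sham range and the other 3 below it, and 1 FF_TAC library was likewise at sham level. Ltbp1 fell by 0.63 on the log2 scale from KO_sham (SE 0.22, edgeR adjusted p 0.0426). Of 8 fits without 1 library, 7 did not reach the threshold, with -0.52 without KO_sham 2, and the one without KO_TAC 1 did (-0.93). Against FF_TAC it did not pass (-0.15, SE 0.22, adjusted p 0.671).

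Ltbp3 (ENSMUSG00000024940, chr19:5740904-5758532, plus strand), which also binds latent TGF-beta, was among the 4 most abundant members per kilobase in every group. Its values were 98.9, 81.8, 100.4 and 87.5 CPM in KO_TAC, 54.1, 60, 51.4 and 66.8 in KO_sham, 55.7, 49.4, 55.9 and 56.2 in FF_TAC, and 55.4, 73.5, 61.5 and 55.4 in FF_sham. The 4 KO_TAC libraries were above the other 12. The log2 fold change was 0.67 against KO_sham (SE 0.11, edgeR adjusted p 0.00217) and 0.76 against FF_TAC (SE 0.11, adjusted p 0.00117).

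Smad7 (ENSMUSG00000025880), the inhibitory Smad, had 45.8, 33.1, 20.3 and 30.6 CPM in KO_TAC, 14.1, 21.9, 18.9 and 20.5 in KO_sham, 15.1, 16.9, 22.3 and 19.7 in FF_TAC, and 22.6, 18.1, 24.1 and 22.3 in FF_sham. KO_TAC 3 lay within the range of every other floxed group, and the other 3 were above all of them. Smad7 was higher in KO_TAC by 0.79 than in KO_sham (SE 0.21, edgeR adjusted p 0.0150) and by 0.81 than in FF_TAC (SE 0.21, adjusted p 0.0177). Without FF_TAC 1 the second value was 0.72 and no longer passed (adjusted p 0.0606). Without KO_TAC 1, the library with the most atrial marker RNA, the values were 0.56 and 0.58 and still passed. With voom the values were 0.38 and 0.35 (adjusted p 0.0786 and 0.175), and with only the groups compared 0.77 and 0.80 (adjusted p 0.0562 and 0.0994), none of which passed.

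**Figure D2:**
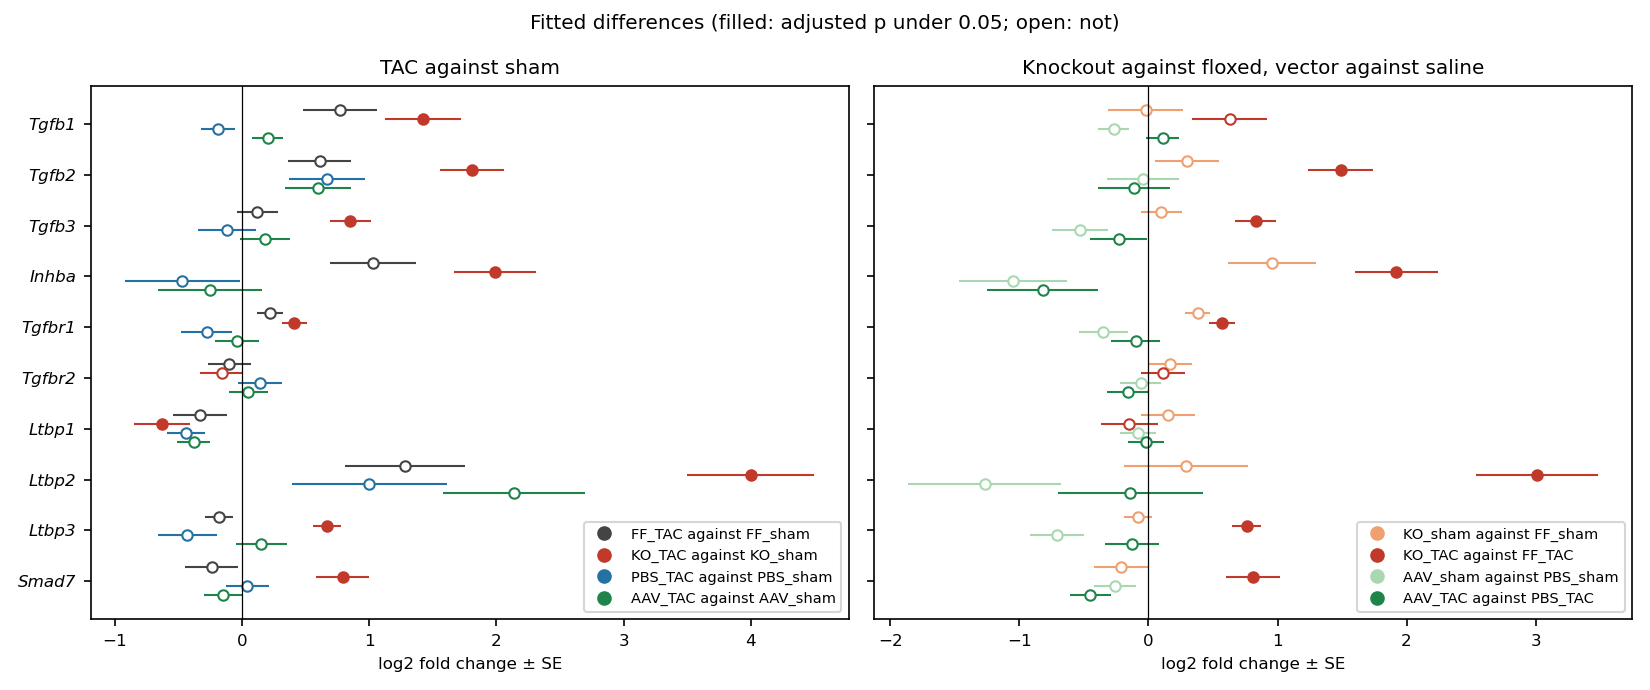
Log2 fold changes with their SE from the edgeR fits for the 10 genes, TAC against sham on the left and knockout or vector against control on the right, filled where the adjusted p is under 0.05. Filled points occur only in the KO_TAC comparisons (9 on the left and 7 on the right), Ltbp2 being farthest from 0 in both.

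The haemoglobin split bears on these counts because all KO_TAC libraries lie on one side. With a haemoglobin term in the model, 3 members passed in KO_TAC against KO_sham (1.75% of all genes did), namely Ltbp2 (3.56), Tgfb2 (1.60) and Ltbp3 (0.68). In the same fit Inhba had 1.30 (adjusted p 0.0553), Tgfb3 0.75 (adjusted p 0.0757) and Tgfb1 0.80 (adjusted p 0.225). Against FF_TAC the term left 6 members past the threshold (7.23% of all genes), with Smad7 at 0.70 (adjusted p 0.0862). The term rests on FF_TAC 2 and 3 and KO_sham 2. Between haemoglobin-low libraries alone, 4 against 2, no member and none of 15311 genes passed in edgeR, yet Ltbp2 was at 2.56 (SE 0.56), Inhba at 1.41 (SE 0.33), Tgfb2 at 1.18 (SE 0.37) and Ltbp3 at 0.78 (SE 0.17). Leaving out the 3 libraries gave 8 members in each comparison (23.4% and 22.4% of all genes), Ltbp1 being lost against KO_sham and Tgfb1 gained against FF_TAC.

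Within FF_TAC, where both kinds of library occur, the haemoglobin-low pair was above the other pair for Tgfb1 (mean ratio 2.59), Inhba (2.32), Ltbp2 (2.01) and Tgfb2 (1.55), and below it for Tgfbr2 (0.749). The library labelled KO_sham 2 was above its group for Inhba, Tgfbr2, Ltbp1 and Smad7 and below it for Tgfb1 and Tgfb2. With 2 libraries against 2, or 1 against 3, such an order is often met by chance. Its share over all genes was not computed, so these orders are a description only. Of the 10 genes, Inhba was the one whose haemoglobin-low libraries lay above all haemoglobin-high libraries of their group in both groups. For Smad7, Tgfb3 and Tgfbr1 the mean ratio was also above 1 in both (1.13 and 1.23, 1.14 and 1.05, and 1.07 and 1.05), with overlapping libraries in at least 1 group.

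**Figure D3:**
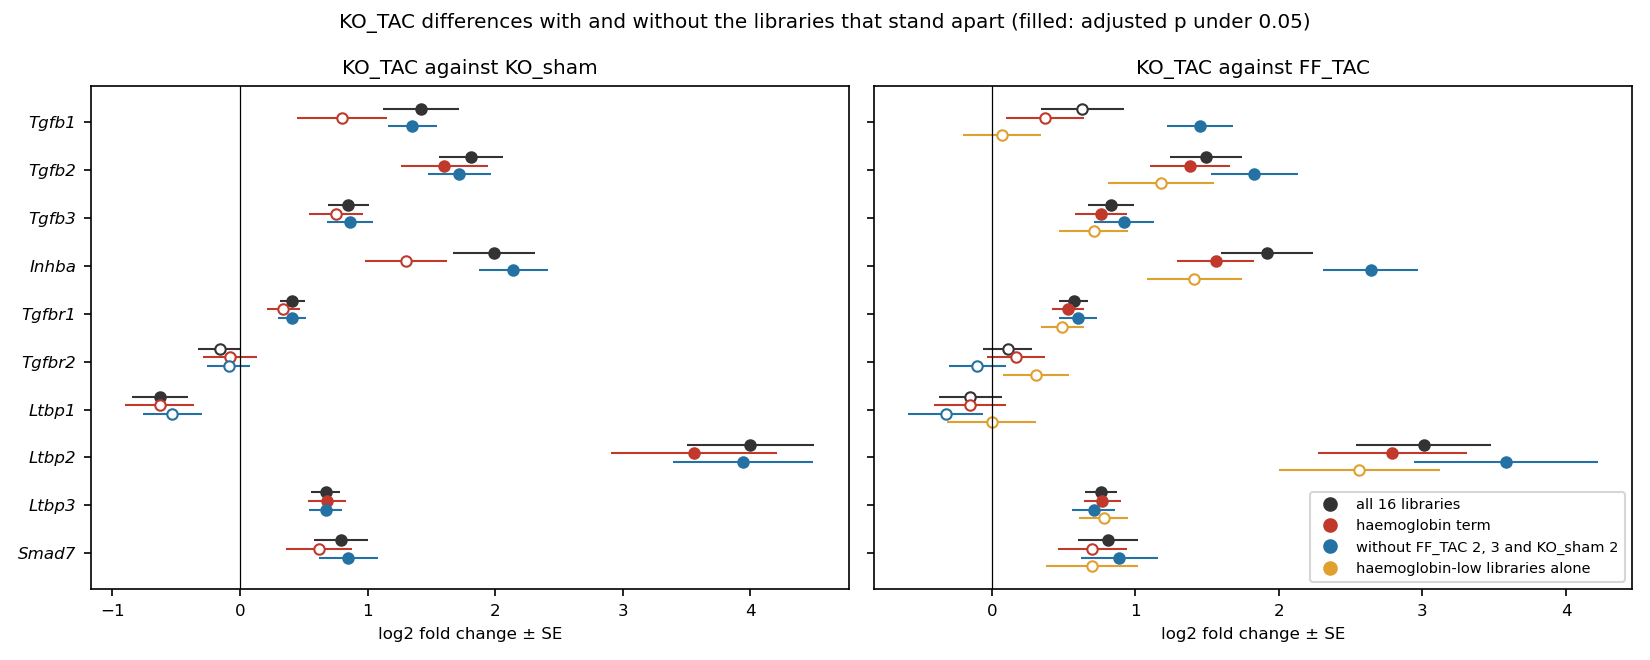
Log2 fold changes with SE of KO_TAC against KO_sham (left) and against FF_TAC (right), with all 16 libraries, with a haemoglobin term, without FF_TAC 2 and 3 and KO_sham 2, and (right only) among haemoglobin-low libraries alone. Filled points have an adjusted p under 0.05, and Ltbp2 stays between 2.56 and 4.0, while Tgfb1 against FF_TAC runs from 0.07 to 1.45.

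Markers of other cells differed between the same groups. The counts of markers that passed stand beside 14.3% of all genes higher and 11.5% lower against KO_sham. Against FF_TAC these shares were 7.53% and 6.8%. The 4 fibroblast markers summed to 958 to 1247 CPM in KO_TAC, 549 to 866 in KO_sham, 581 to 744 in FF_TAC and 478 to 711 in FF_sham. In each KO_TAC comparison 1 of the 4 passed as higher. The median log2 fold change of the 4 was 0.14 against KO_sham and 0.41 against FF_TAC, so the sums do not stand for every marker alike. Endothelial markers summed to 327 to 589 CPM in KO_TAC and 483 to 741 in FF_TAC, and 3 of 4 passed as lower. Macrophage markers reached 148 to 173 CPM in KO_TAC against 94.0 to 101 in FF_TAC, where 2 of 4 passed as higher, but 114 to 215 in KO_sham. Of 4 cardiomyocyte markers, 2 passed as lower against KO_sham and 1 against FF_TAC, with sums of 37984 to 47318 CPM in KO_TAC, 46291 to 49347 in KO_sham and 42283 to 49626 in FF_TAC. Platelet markers summed to 19.6 to 28.2 CPM in KO_TAC, with Gp9 at 0 there, to 14.9 to 23.7 in KO_sham and to 11.7 to 20.2 in FF_TAC. Of 4 platelet markers 3 were tested, and 1 passed as lower against KO_sham and none against FF_TAC. KO_TAC 1 held 9567 CPM of atrial markers against at most 6.21 in the other 3. In whole hearts more cells of a type and more RNA per cell cannot be told apart, and the part of these markers in the values above was not tested.

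Other genes of the pathway were read from 5 lists, whose counts stand beside 25.8% of all genes called against KO_sham and 14.3% against FF_TAC (1.75% and 7.23% with the haemoglobin term). Of 8 target genes, 4 rose in KO_TAC against FF_TAC and none fell, with a list median of 1.02 against 0.04 over all genes. They were Ccn2, a matricellular growth factor (log2 fold change 2.37, SE 0.43, edgeR adjusted p 0.00273), Postn, a marker of activated fibroblasts (2.32, SE 0.44, adjusted p 0.00375), Col1a1, a chain of type I collagen (1.03, SE 0.20, adjusted p 0.00377), and Fn1, fibronectin (1.02, SE 0.23, adjusted p 0.0100). Ccn2 averaged 649 ± 211 CPM in KO_TAC and 126 ± 63.2 in FF_TAC (SD, n = 4). Against KO_sham, 4 of 8 also rose, among them Postn (2.87), Ccn2 (2.50) and Col1a1 (0.80). With the haemoglobin term, 2 of the 8 passed there and 5 against FF_TAC.

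Among 10 genes of latency and activation, 2 rose and 1 fell against FF_TAC, where 7.53% of all genes passed as higher and 6.8% as lower. Itgav, the alpha subunit of the integrins that release latent TGF-beta, was higher by 0.91 (SE 0.13, edgeR adjusted p 7.65e-04). Fbn2, a fibrillin to which latent-binding proteins attach, was higher by 2.04 (SE 0.53, adjusted p 0.0199) from 0.550 to 2.28 CPM. Itgb6, a beta subunit that pairs with Itgav to release latent TGF-beta, was lower by the log2 value -1.71 (SE 0.36, adjusted p 0.00690). Against KO_sham 2 rose and 2 fell: Thbs1 (2.86, adjusted p 0.0389) and Itgav (0.79), Itgb6 (-1.67) and Nrros (-0.77). With the haemoglobin term none of these 10 passed against KO_sham, Thbs1 having 0.74, while Itgav, Fbn2 and Itgb6 still passed against FF_TAC.

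The genes of the signal carriers did not pass in either comparison. Smad2, Smad3 and Smad4 differed from FF_TAC by -0.04, -0.01 and -0.02 on the log2 scale and from KO_sham by -0.02, -0.24 and 0.04 (SE 0.15, 0.26 and 0.10 in both). Of the 11 Smads and repressors, 1 rose against FF_TAC, a share near that of all genes, Pmepa1, a membrane protein that restrains the pathway and is induced by it (0.83, SE 0.19, edgeR adjusted p 0.0101). Against KO_sham 4 rose, Tgif1 (2.48), Pmepa1 (1.24), Skil (1.16) and Bambi (0.76), of which Pmepa1 still passed with the haemoglobin term (1.14, adjusted p 0.0438). Among 4 genes of co-receptors and type I receptor partners, none passed against FF_TAC. Acvrl1, a type I receptor gene, rose against KO_sham (0.57, edgeR adjusted p 0.0184). With the haemoglobin term none of the 4 passed in either comparison.

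In the list of the activin branch and members of the wider family, 9 of 11 genes were tested. Against FF_TAC 3 rose with none lower. Gdf15, a stress-induced member of the wider family, was higher by 2.30 (SE 0.62, edgeR adjusted p 0.0226), Fst, which encodes the activin-binding protein follistatin, by 2.02 (SE 0.54, adjusted p 0.0213) and Fstl3, a second activin-binding protein, by 1.13 (SE 0.33, adjusted p 0.0354). Fst was scarce, at 2.35 ± 1.72 CPM in KO_TAC and 0.581 ± 0.350 in FF_TAC. Against KO_sham Gdf15 (3.29), Fstl3 (1.69) and Inhbb (1.41), the subunit of activin B, rose and Gdf11 (-0.93) fell. None of the 9 passed in either comparison with the haemoglobin term. In the other comparisons no gene of the 5 lists passed in edgeR, with 0 to 5 genes of a list at an unadjusted p under 0.05 in each. DESeq2 called 0 to 2 genes of a list in each of them. The lists with 2 were the target genes in FF_TAC against FF_sham (both higher, with 168 of 15596 genes called) and in PBS_TAC against PBS_sham (1 higher and 1 lower, 2.35%), latency and activation in PBS_TAC against PBS_sham (both lower), and Smads and repressors in AAV_sham against PBS_sham (both lower, 2.37%).

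**Figure D4:**
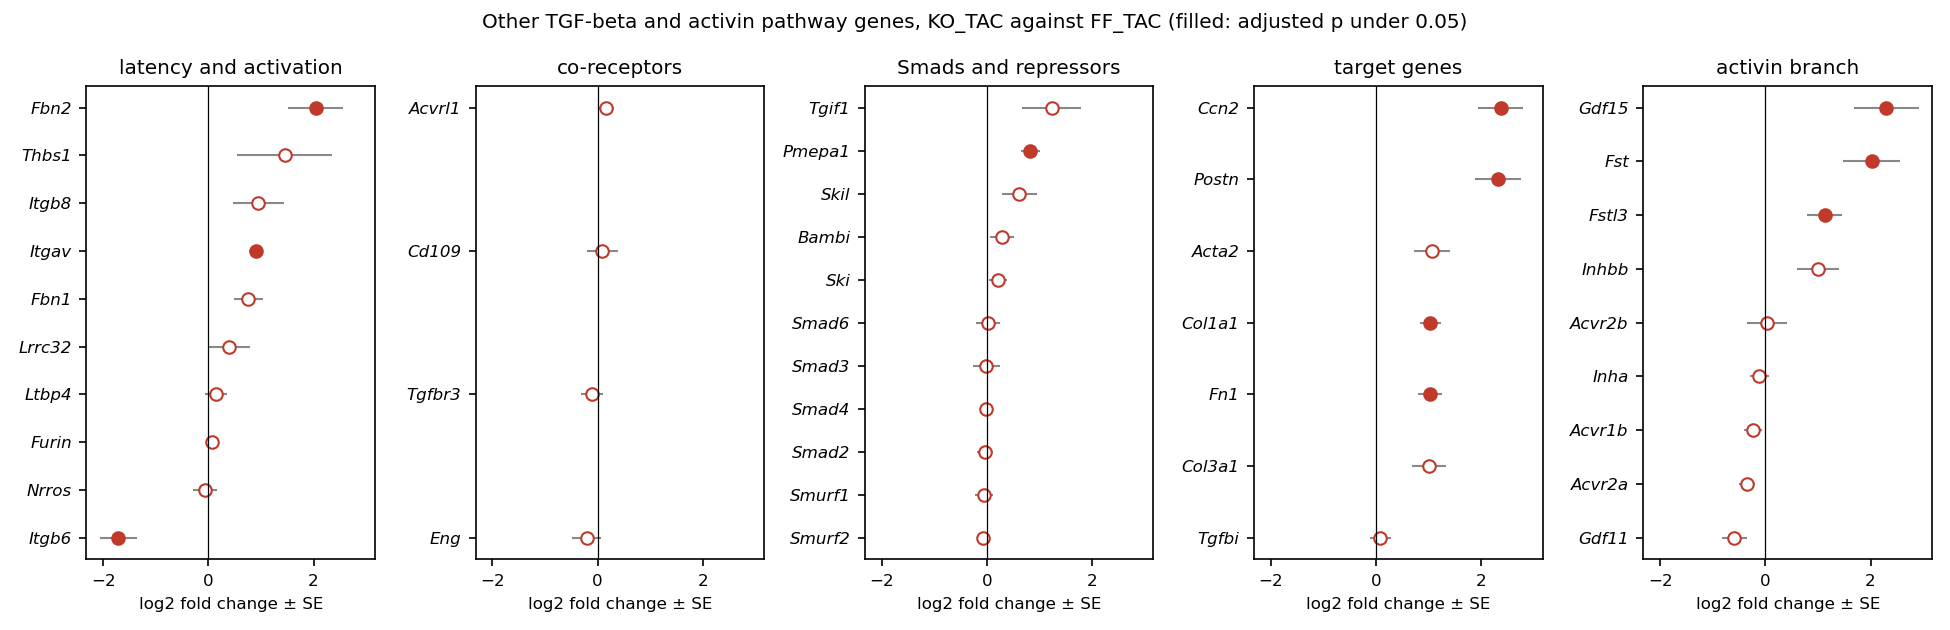
Log2 fold changes with SE of other TGF-beta and activin pathway genes in KO_TAC against FF_TAC, for the genes of 5 lists that are reported here, filled where the edgeR adjusted p is under 0.05. Target genes have 4 filled points to the right, led by Ccn2 and Postn at 2.37 and 2.32, and Smad2, Smad3 and Smad4 lie between -0.04 and -0.01.

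In floxed controls TAC alone gave no member past the threshold, and 0% of all genes passed in edgeR (DESeq2 called 168 genes, none a member). At an unadjusted p under 0.05 there were 5 members, all higher in FF_TAC, against 11.1% of all genes, and libraries of 2 members did not overlap, both higher, against 6.03% of all genes (2.74% higher, 3.3% lower). These 5 were Ltbp2 (1.28), Inhba (1.03, SE 0.34), Tgfb1 (0.77), Tgfb2 (0.61, SE 0.25) and Tgfbr1 (0.22, SE 0.10), with edgeR adjusted p from 0.347 to 0.437. Among haemoglobin-high libraries alone Inhba had 0.30, Tgfb2 0.26 and Ltbp2 0.69. KO_sham against FF_sham likewise had no member past the threshold and 0% of genes, and 2 members at an unadjusted p under 0.05, against 5.22% of genes. Libraries did not overlap for 1 member, Inhba, against 6.77% of genes (3.23% higher, 3.55% lower). The 2 at an unadjusted p under 0.05 were Inhba (0.96, SE 0.34, adjusted p 0.900) and Tgfbr1 (0.38, SE 0.10, adjusted p 0.798), both higher in KO_sham.

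Whether TAC acted differently in knockouts was tested as an interaction. No member passed in edgeR, where 7 genes did (0.0449%, with 0.0256% higher and 0.0192% lower). At an unadjusted p under 0.05 there were 5 members, all with a larger TAC step in knockouts, against 13.1% of all genes. Ltbp3 had 0.85 (SE 0.16, adjusted p 0.0681), Ltbp2 2.72 (SE 0.66, adjusted p 0.111), Smad7 1.02 (SE 0.29, adjusted p 0.156), Tgfb2 1.19 (SE 0.35, adjusted p 0.163) and Tgfb3 0.73 (SE 0.22, adjusted p 0.176). DESeq2 called 4 of the 10 (2.42% of all genes) and voom with sample weights 6 (18.8%). Without KO_TAC 1 edgeR called Tgfb2, Ltbp2 and Ltbp3 (1.36% of genes), and without KO_TAC 4 it called Ltbp3 (0.641%). Without FF_TAC 2 and 3 and KO_sham 2 it called 5 (5.06%), with Tgfb1 at 1.43 and Inhba at 1.84. With the haemoglobin term no member passed in edgeR, nor did any other of the 15596 genes. Which members passed thus differed with the tool and with single libraries.

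In the AAV9 cohort no member passed in any of the 5 comparisons, in which at most 0.0381% of genes passed in edgeR. After TAC, 0.0318% of genes passed with saline (0.0127% higher, 0.0191% lower) and 0.00635% with the vector, all of them lower. Of the 10 genes Ltbp2 had the largest log2 fold change after TAC in both arms. It had 31.0, 53.9, 15.8 and 11.3 CPM in AAV_TAC, 7.86, 12.8, 2.34 and 2.42 in AAV_sham, 39.2, 20.7 and 32.5 in PBS_TAC, and 10.2, 17.3 and 18.6 in PBS_sham. The PBS_TAC libraries were all above PBS_sham, while AAV_TAC 4 lay below AAV_sham 2. The TAC step was 2.14 with the vector (SE 0.56, unadjusted p 0.00193, edgeR adjusted p 0.258) and 1.0 with saline (SE 0.61, adjusted p 0.367), and the interaction was 1.13 (SE 0.82, adjusted p 0.704). DESeq2 called the first of these (adjusted p 0.0132, 0.743% of genes called). In edgeR it was 1.61 without AAV_TAC 2.

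Tgfb2 and Ltbp1 also had an unadjusted p under 0.05 after TAC in both AAV9 arms. Tgfb2 was at 29.2, 21.5 and 22.3 CPM in PBS_TAC, 14.2, 15.3 and 16.5 in PBS_sham, 23.8, 36.0, 13.4 and 17.2 in AAV_TAC, and 13.4, 21.3, 12.3 and 12.6 in AAV_sham. The saline groups did not overlap and the vector groups did, with log2 fold changes of 0.67 (SE 0.30, edgeR adjusted p 0.262) and 0.60 (SE 0.26, adjusted p 0.667). Without AAV_TAC 2 the second was 0.28. Ltbp1 was at 46.0, 50.1 and 35.1 CPM in PBS_TAC, 53.7, 58.8 and 65.5 in PBS_sham, 42.4, 36.8, 51.9 and 41.6 in AAV_TAC, and 56.8, 54.9, 51.8 and 61.2 in AAV_sham. All PBS_TAC libraries were below all PBS_sham libraries, and in the vector arm 3 of 4 AAV_TAC libraries were below every AAV_sham library. Its differences were -0.44 (SE 0.15, adjusted p 0.190) and -0.38 (SE 0.13, adjusted p 0.495). Side by side, the 4 TAC steps (FF, KO, PBS, AAV) were 1.28, 4.0, 1.0 and 2.14 for Ltbp2, 0.61, 1.81, 0.67 and 0.60 for Tgfb2, and -0.33, -0.63, -0.44 and -0.38 for Ltbp1. Of these 12 values the 3 in knockouts passed. At an unadjusted p under 0.05 there were 2 members after TAC with saline, against 18.5% of genes, and 3 with the vector, against 7.05%. Libraries did not overlap for Tgfb2, Ltbp2 and Ltbp1 with saline, against 14.7% of genes (8.11% higher, 6.57% lower), and they overlapped for all members with the vector, where 4.9% of genes were apart as higher and 5.79% as lower.

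Inhba and Tgfb1, which rose with TAC in knockouts, did not pass here, and their steps with saline were negative. Inhba was at 6.55, 6.51 and 2.80 CPM in PBS_TAC and 5.64, 6.31 and 9.93 in PBS_sham, and its steps were -0.47 (SE 0.45) with saline and -0.25 (SE 0.41) with the vector. Tgfb1 ranged from 32.6 to 38.3 CPM in PBS_TAC and from 35.4 to 47.0 in PBS_sham, and from 32.7 to 42.6 in AAV_TAC and 30.9 to 34.1 in AAV_sham. Its steps were -0.19 (SE 0.13) and 0.20 (SE 0.12), and their difference was 0.38 (SE 0.18, unadjusted p 0.0475, edgeR adjusted p 0.688), with 6.95% of genes at such an unadjusted p. PBS_sham 3 gave the highest PBS_sham value for both genes (9.93 CPM of Inhba and 47.0 of Tgfb1). Without this library the Tgfb1 difference was 0.24. It also held 1163 CPM of smooth muscle markers, whose part in these steps was not tested. All AAV9 libraries were haemoglobin-high.

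In AAV_sham against PBS_sham all 10 log2 fold changes were negative, with a median of -0.31 against -0.03 over all genes, of which 0.0127% passed, all lower. At an unadjusted p under 0.05 there were 5 members, against 20.7% of all genes, namely Ltbp3 (-0.71, SE 0.21), Ltbp2 (-1.27, SE 0.59), Inhba (-1.05, SE 0.42), Tgfb3 (-0.53, SE 0.22) and Tgfb1 (-0.27, SE 0.12). The edgeR adjusted p ran from 0.152 to 0.238. Ltbp3 was at 56.4, 93.6 and 125 CPM in PBS_sham and 63.6, 58.1, 48.1 and 54.0 in AAV_sham, so the highest values came from PBS_sham 3 and then PBS_sham 2. PBS_sham 3 had 1163 CPM of smooth muscle markers, against 20.6 to 151 in the other 29 libraries, and 25662 CPM of cardiomyocyte markers, the lowest of all. Without it Ltbp3 was at -0.43, Tgfb3 at -0.27, Tgfb1 at -0.13 and Tgfb2 at 0.02, and without PBS_sham 1 edgeR called Tgfb3 (-0.73) and Ltbp3 (-0.95), with 17.4% of all genes. Scaling by library totals alone moved the median of all genes to -0.27 and Ltbp3 to -1.02. The part of the smooth muscle tissue was not tested. In AAV_TAC against PBS_TAC, Smad7 alone had an unadjusted p under 0.05 (-0.45, SE 0.16, edgeR adjusted p 1, 3.19% of genes), with 22.6, 21.9, 25.0 and 22.8 CPM against 27.8, 32.8 and 34.1. Its groups did not overlap, nor did those of Tgfb3, both lower, as for 4.28% of genes.

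Across the 16 floxed libraries, the genes whose log2 CPM followed each member most closely were named as a description. Pearson's r with Ltbp2 was 0.97 for Lpar1, Panx1 and Ppm1e, and over the 14 AAV9 libraries it was 0.70, 0.92 and 0.68. Tgfb1 was followed by Mob3c (0.99), Relb (0.98) and Rhoc (0.98), with 0.78, 0.62 and 0.91 in the AAV9 cohort. For Tgfb2 they included Fxyd5 (0.98) and Cct3 (0.98), where the AAV9 values were 0.39 and 0.27. Inhba was followed by Runx1 (0.97), Cd9 (0.96) and Ptbp3 (0.95), with 0.48, 0.82 and 0.50. Ltbp1 was followed by Tgfbr3 (0.96), the gene of the co-receptor betaglycan, Ppl (0.95) and Efemp1 (0.95), with 0.69, 0.83 and 0.82. The lists of Tgfb3 (Tnnt3, Dlg4, Atp10a), Tgfbr1 (Thbs3, Ap2b1, Ccdc80) and Ltbp3 (Rrbp1, Twist1, Ninl) had r from 0.93 to 0.96, and over the AAV9 libraries from 0.02 (Ap2b1) to 0.86 (Atp10a). Those of Smad7 (Adgrg2, Nefm, Gpr153) had r from 0.84 to 0.88, and 0.39, -0.04 and 0.53 in the AAV9 cohort. These libraries share groups and the haemoglobin split, and the genes were picked as the highest of all tested.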

How the data were processed

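Poly(A) RNA of 30 mouse hearts was sequenced with a directional (stranded) kit, per the labels' protocols. The authors deposited whole-number counts per gene and library. Per the submitters' processing notes, HISAT2 2.1.0, featureCounts, Subread 1.5.1 and GRCm38 were used. The strand setting and annotation release are not given in the sources used here. Without the strand setting, reads of a gene and of genes overlapping it on the other strand cannot be told apart. Symbols came from GENCODE M21 and matched 55227 of 55487 identifiers.

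The 2 cohorts were fitted separately in edgeR 4.0.16 (R 4.3.3) by the quasi-likelihood F test, TMM scaling and filterByExpr, with 1 mean per group and Benjamini-Hochberg adjustment over all genes tested. There were 10 comparisons. Levels are TMM-scaled CPM computed from the counts. Alternatives were DESeq2 1.42.0, limma 3.58.1 voom with sample weights, RLE scaling, no filter, a mean of at least 5 CPM, a replicate block, all 30 libraries in 1 fit, only the groups compared, a haemoglobin term or subset (100 CPM limit), leaving out each library and, in the AAV9 cohort alone, a covariate for atrial tissue (Myl7). Added after the data were seen were library totals alone and the fit without FF_TAC 2 and 3 and KO_sham 2.

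The members, lists and haemoglobin settings were chosen with earlier results of these data known. Named were all 10 members, the 3 called genes of each pathway list with the largest changes in a comparison, and the 3 genes most correlated with each member called in any comparison (log2 CPM, prior count 2). Fn1, Nrros, Bambi and Gdf11 and the pathway genes given as not passing were added after their values were seen, Col1a1 against KO_sham likewise. No duplicate libraries were found: chi-square values of gene counts, per degree of freedom, were 6.8 to 262 over 42 within-group pairs. The script was tested on simulated data. Sample titles in KO_TAC read as TAC and sham at once, so group membership follows the genotype and treatment labels. A few genes that these rules name are not reported here.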

Additional observations from a re-analysis of the deposited data

Results flagged for a closer look

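In groups of 4 libraries, 60 tests looked for a library far from the other 3, with Dixon's ratio (the gap to the nearest library over the whole range) above its critical value for 4 libraries. Chance gives about 1 in 20 such flags, and 4 were found. Tgfb2 was 21.3 CPM in AAV_sham 2, against 12.3 to 13.4 in the others. Tgfbr1 was 14.6 CPM in KO_sham 3, against 17.7 to 18.2. Ltbp1 was 53.9 CPM in KO_TAC 1, the library with the most atrial marker RNA, against 26.9 to 31.0. Ltbp3 was 49.4 CPM in FF_TAC 2, against 55.7 to 56.2.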

How the results depend on the processing

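The alternatives were tallied for the 41 member values that were called or had an unadjusted p under 0.05 in the main edgeR fit. Other values were not tallied, such as Tgfb2 in AAV_sham against PBS_sham, which turned without PBS_sham 3. Of the tallied log2 fold changes, 758 kept direction and side of the threshold, 30 lost a call, 21 gained one and 2 turned. Both turns were Tgfb1 in FF_TAC against FF_sham, at -0.07 with haemoglobin-high libraries alone and without FF_TAC 2 and 3 and KO_sham 2. The cause was not tested. Counts of members called moved as follows. KO_TAC against KO_sham gave 3 with the haemoglobin term. KO_TAC against FF_TAC gave 0 among haemoglobin-low libraries alone, with fewer samples. The interaction of knockout and TAC gave 4 with DESeq2, 6 with voom and 5 without FF_TAC 2 and 3 and KO_sham 2. DESeq2 called 1 in AAV_TAC against AAV_sham, and the fit of all 30 libraries called 1 in AAV_sham against PBS_sham. Leaving out 1 library gave 8 to 9 members in KO_TAC against KO_sham, 6 to 7 against FF_TAC, 0 to 3 for the knockout interaction, 0 to 1 in PBS_TAC against PBS_sham (Ltbp3 at -0.67 without PBS_sham 1, where 1796 genes or 11.1% of all passed against 5 with it), 0 to 2 in AAV_sham against PBS_sham, and 0 elsewhere. The deviations of same-numbered libraries from their group means had r from -0.41 to 0.45 over 8 comparisons. With 3 or 4 libraries per group, these values cannot settle whether the numbers mark pairs. With a replicate block the members called were 9 in KO_TAC against KO_sham, 7 against FF_TAC and 0 in the other 8 comparisons, as without it. Over all genes the block moved the knockout interaction from 7 to 19 calls. Calls over all genes in KO_TAC against KO_sham numbered 4031 in edgeR, 8336 with voom, 2327 with only the groups compared and 273 with the haemoglobin term. Against FF_TAC they numbered 2235, 6002, 557 and 1127 in the same order, and 3663 without FF_TAC 2 and 3 and KO_sham 2. Library totals alone moved the median log2 fold change of all genes to -0.21 in PBS_TAC against PBS_sham, -0.27 in AAV_sham against PBS_sham and 0.21 for the vector interaction. They moved 3 of 80 mean CPM values by more than 1 SD. Inhba and Ltbp2 were limited by depth in the shams, with as few as 23 reads per library.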
